A study of Mus musculus with 2 samples.

Results

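Peroxisomes are small organelles that shorten very-long-chain and branched fatty acids, carry out the opening steps of ether lipid synthesis and break down the hydrogen peroxide that their oxidases release. Peroxins, encoded by the Pex genes, build the organelle and import its enzymes from the cytosol. In brown fat, peroxisomes multiply when the tissue is recruited by cold, and several of their enzymes are classical targets of the nuclear receptor PPAR-alpha. The transcripts described here are 31 genes of this system, chosen by symbol from the 27179 genes of the deposited tables. They comprise 13 Pex genes, 7 genes of peroxisomal beta-oxidation, 3 genes of the ABCD transporter family, 5 genes of alpha-oxidation and related enzymes, and 3 genes of ether lipid synthesis.

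The RNA was from iBAT, the interscapular brown fat depot that warms young mice, taken from untreated Bl6N (C57BL/6N) animals aged 20 days. There was 1 library from wild-type (WT) animals and 1 from Ucp1 knockout (Ucp1-KO) animals, which lack the uncoupling protein that lets brown fat burn fuel as heat, and each was a pool of 3 animals. The knockout is written as homozygous for a deletion, and which part of Ucp1 it removes is not given in the sources used here. Because each genotype had 1 library, nothing could be tested between genotypes, and every difference below is a difference between these pools. Intervals are 95% counting intervals and hold no variation between animals.

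Several facts of the libraries bear on every value. Totals were 52950913 counts for WT and 53216727 for Ucp1-KO. Ucp1 itself stood in the Ucp1-KO library at 12.7% of the WT level (12.5% to 12.9%), a log2 ratio of -2.98. The animals are described as male, but the 4 Y-linked genes examined were at 0 in the WT library against 5305 counts in sum in the Ucp1-KO library, so sex and genotype cannot be told apart. Skeletal muscle markers stood far lower in Ucp1-KO, by 2-fold or more for all 20, and their share of the counts was 0.657% in WT and 0.0789% in Ucp1-KO. Mitochondrially encoded RNA took 22.4% of the WT and 36.7% of the Ucp1-KO counts. Markers of brown adipocytes were present in both libraries, with 89838 and 102812 counts of Cidea, which is given for its presence only. Of the 12 such markers examined, 8 had a log2 ratio above 0 and 4 below. Alb, the abundant transcript of liver, which is rich in peroxisomes, had 2 counts in either library. The part of any of these in the results below was not tested, and in bulk tissue fewer cells of a type and less RNA per cell cannot be told apart.

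Enzymes reach the peroxisome through short signals that the receptors Pex5 and Pex7 read. The type 1 signal, read by Pex5, is the last 3 residues of a protein, in its usual form serine, alanine or cysteine, then lysine, arginine or histidine, then leucine or methionine. The type 2 signal, read by Pex7, lies near the start of a protein. To show which member enzymes carry the usual type 1 signal and which carry a variant, the ends of their coding sequences are given below 5′ to 3′, from the canonical transcripts of GENCODE mouse release 39 on GRCm39. Capitals mark the last 3 codons and lower case the stop codon.
Ehhadh: AGCAAACTGtga
Scp2: GCTAAGCTGtga
Pecr: GCCAAGCTCtaa
Gnpat: GCAAAACTAtaa
Acox2: CCCAAGCTGtga
Acox3: TCCCAGCTGtag
Hacl1: TCTAACATGtga
Amacr: GCCAATCTCtga
Cat: GCTAACCTGtaa
The first 4 of these, together with Hsd17b4, met the usual pattern, which 111 of 21543 annotated proteins (0.515%) end with. Acox2, Acox3, Hacl1, Amacr and Cat end in triplets outside it. The type 2 pattern was found within the first 40 residues of 198 proteins (0.919%), among them the thiolases Acaa1a and Acaa1b and the hydroxylase Phyh. The 27 coding bases of that pattern are shown next, since they place these enzymes with the other receptor. Capitals mark the codons of its fixed positions.
Acaa1a: CGGCTGcaggtagtgctgggcCACCTG
Acaa1b: CGGCTGcaggtagtgctgggtCACCTG
Phyh: CGGCTGcaggtccttctgggaCACCTC
Pex11a, a membrane protein, also held letters of the type 2 pattern, which says nothing of its import.

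All 31 genes had counts in both libraries and a mean normalised count of at least 10, the minimum for a gene to be examined. Normalised counts are counts divided by a library's median-of-ratios size factor, and the log2 ratio is the Ucp1-KO over the WT value. The members had a median log2 ratio of 0.21 with 23 above and 8 below 0, whereas the 15212 genes examined had a median of -0.0016 with 49.9% above 0. The 1.5-fold rule took in 8 of 31 members on the higher side (25.8%), against 15.4% of all genes examined. On the lower side it took in 2 members (6.45%), against 17.9% of all genes. The 2-fold rule took in 2 higher members, Ehhadh and Pex5, where the share of all genes was 7.42%, and 1 lower member, Pex11a, where it was 9.55%. A counting interval wholly above 0 was found for 18 members and 31.5% of all genes, and an interval wholly below 0 for 4 members and 30.5% of all genes. Most members are well counted, so their intervals are narrow.

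The direction of the small differences depended on the scaling. With total counts, which shift the median of all genes to -0.31, 12 members were above and 19 below 0. Of all genes 8.61% were then 1.5-fold higher and 30.9% lower. With total counts without mitochondrially encoded genes, 23 members were above and 8 below 0, the same numbers as with the main scaling. With the 10 adipocyte markers as the reference, chosen after seeing the data, 14 were above and 17 below. Under all 5 scalings tried, the intervals of 11 members stayed above 0: Ehhadh, Pex5, Pex14, Pex13, Abcd3, Phyh, Pex10, Acaa1b, Hacl1, Pex3 and Hsd17b4. Those of 4 stayed below 0, namely Abcd2, Pex6, Acaa1a and Cat. Of all genes, 14.4% had intervals above 0 with total counts and 30.5% had them below 0 with the main scaling. The share of all genes that kept a side under all 5 scalings was not computed. The alternatives to the main scaling all moved the ratios down, by -0.011 to -0.31. Members below 0 could therefore not have left that side, and their staying there adds nothing to the main values. For the other 16 members the side of 0 was not settled by these counts.

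**Figure D1:**
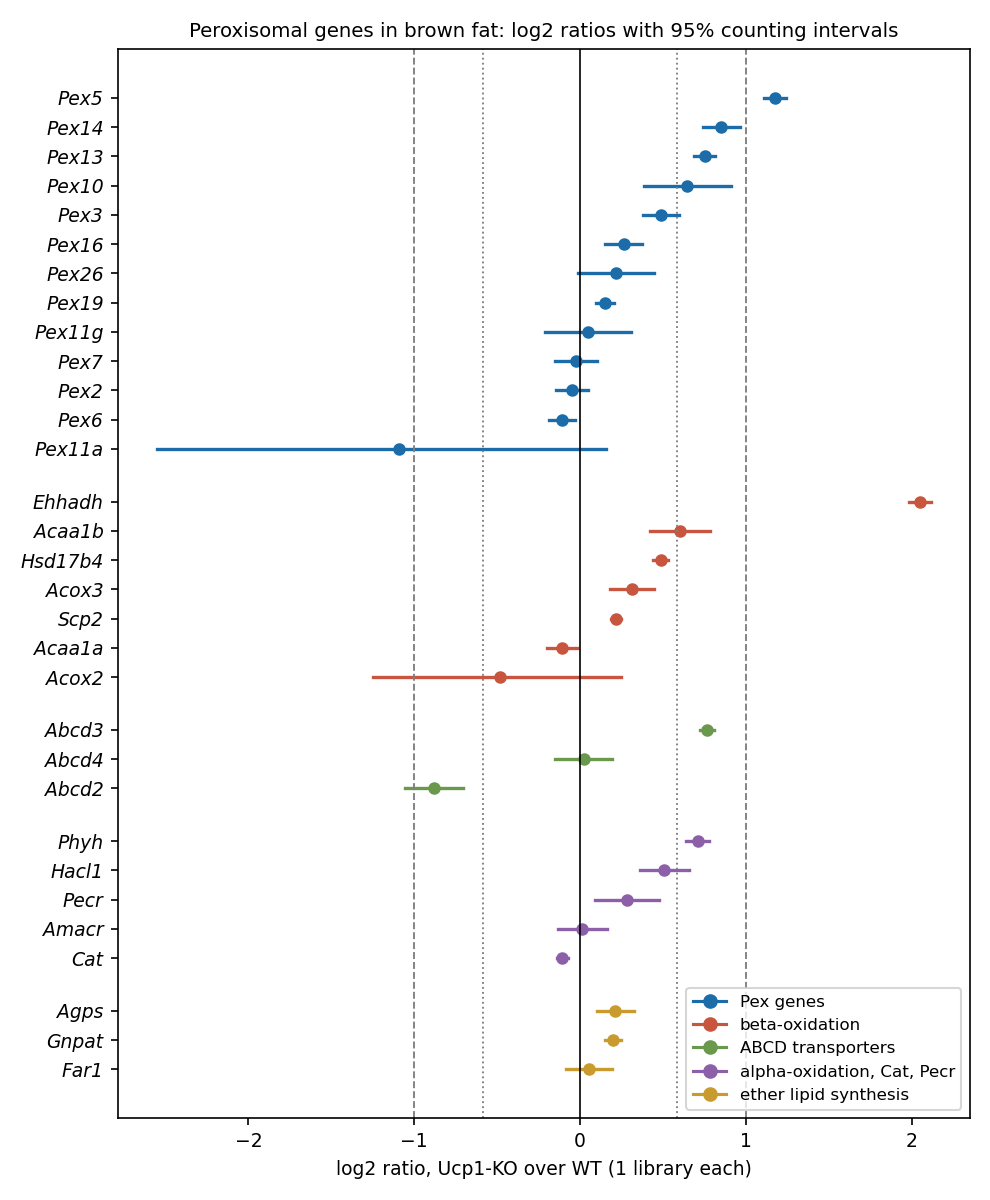
Log2 ratios of the 31 genes, Ucp1-KO over WT on the x axis, grouped by role, with points for the ratio and lines for 95% counting intervals (1 library per genotype, median-of-ratios scaling; dotted lines 1.5-fold, dashed lines 2-fold). Ehhadh at 2.05 and Pex5 at 1.17 lie furthest right and Pex11a at -1.09 and Abcd2 at -0.88 furthest left; with total counts every point moves left by about 0.31 and 12 in place of 23 members lie above 0.

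Among the Pex genes the highest ratios were those of Pex5, Pex14 and Pex13, a receptor and the docking proteins of matrix import. Pex5 (chromosome 6, 124373564 to 124392103, minus strand), the receptor for type 1 signals, had 5477 counts in WT (5274 to 5686) against 10038 in the other library. After normalisation these were 4937 and 11137, a log2 ratio of 1.17 (1.11 to 1.24). It was the Pex gene with the highest ratio. Pex7, the receptor for type 2 signals, had 2315 and 1847 counts and a log2 ratio of -0.03 (-0.15 to 0.10). The receptors thus differed from each other: the log2 ratio of Pex5 exceeded that of Pex7 by 1.20 (1.06 to 1.34), a difference that no scaling changes.

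Docking proteins receive the loaded receptor at the peroxisomal membrane. Pex13 had 7016 counts in WT and 9601 in Ucp1-KO, for a log2 ratio of 0.75 (0.69 to 0.82). Pex14 had 2201 and 3228 counts with a log2 ratio at 0.85 (0.74 to 0.96). These partners moved by like amounts, Pex13 less Pex14 being -0.10 (-0.23 to 0.03). Pex13 shares exon sequence with Pus10 on the opposite strand, which had 2306 and 1601 counts and so lay on the other side of 0, at -0.23.

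After import the receptor is marked with ubiquitin by a ligase that includes Pex2 and Pex10, and pulled out by a motor that includes the ATPase Pex6, which Pex26 anchors. Pex10 had 442 and 562 counts with a log2 ratio at 0.65 (0.39 to 0.91), while Pex2, with 4006 and 3150, stood at -0.05 (-0.14 to 0.05). The difference between these ligase partners was 0.69 (0.42 to 0.96). Pex6 was slightly lower, with 6164 and 4641 counts and a log2 ratio of -0.11 (-0.19 to -0.03). Pex26 had 654 and 616 counts and a ratio of 0.21 (-0.02 to 0.44), an interval that reaches 0.

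Pex3, Pex16 and Pex19 place proteins in the peroxisomal membrane, Pex19 as the soluble chaperone and Pex3 as its docking site. Pex3 had 2671 counts in WT and 3045 in Ucp1-KO, for a log2 ratio of 0.49 (0.38 to 0.60). Pex16 was at 0.26 (0.15 to 0.37) and Pex19, with 11054 and 9960 counts, at 0.15 (0.09 to 0.20). The last pair turned to -0.04 and -0.16 with total counts, so of these genes Pex3 alone kept its direction under that scaling.

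The Pex11 family elongates and divides peroxisomes. Pex11a, the form that peroxisome proliferators induce in liver, had 40 counts in WT (24.4 to 61.8) and 15 in Ucp1-KO, for a log2 ratio of -1.09 with an interval of -2.55 to 0.16. At this depth a difference was not detectable for it. Pex11g had 537 and 451 counts and a ratio of 0.05 (-0.21 to 0.31). Exons of Pex11a and Pex11g overlap Wdr93 and Arhgef18 on the opposite strand, which had 301 and 1741 counts in WT. Pex5l, a brain-enriched relative of Pex5, had 55 and 8 counts (-2.42, -4.46 to -0.96).

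Peroxisomal beta-oxidation was led by 1 gene. Ehhadh (chromosome 16, 21580036 to 21606563, minus strand), the L-bifunctional enzyme that hydrates and oxidises straight-chain and dicarboxylic acyl-CoAs, had 4884 counts in WT (4692 to 5082) and 16426 in Ucp1-KO. Its normalised counts were 4402 and 18224, a log2 ratio of 2.05 (1.98 to 2.12), or 4.14-fold. That value stood above 98.0% of all genes examined, and it was 1.74 with total counts and 1.80 relative to the adipocyte markers. No exon of another annotated gene overlaps Ehhadh.

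Hsd17b4, the D-bifunctional enzyme that does the same chemistry on branched and very-long-chain substrates, had 14098 and 16035 counts with a log2 ratio at 0.49 (0.44 to 0.53). Ehhadh exceeded it by 1.56 (1.48 to 1.64), a 2.96-fold change in their proportion. The 6 beta-oxidation genes other than Ehhadh had a median log2 ratio of 0.26, against 0.31 with it. The median thus rested little on Ehhadh, while the summed normalised counts of all 7, 57261 in WT and 82014 in Ucp1-KO, gave 0.52 with it and 0.27 without.

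The oxidases start the pathway. Acox3, which acts on branched chains, had 1849 and 1864 counts and a log2 ratio of 0.31 (0.18 to 0.44). Acox2, an oxidase of bile acid intermediates and branched chains that is chiefly a liver enzyme, had 88 and 51 counts, with a ratio of -0.48 and an interval of -1.25 to 0.25.

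Thiolases end each round of the pathway. Acaa1a had 4649 and 3502 counts with a log2 ratio at -0.11 (-0.20 to -0.02), and Acaa1b had 923 and 1138, a ratio of 0.60 (0.42 to 0.78). Acaa1b therefore gained on Acaa1a by 0.71 (0.51 to 0.91). The coding sequences of these neighbours on chromosome 9 are identical at 1231 of 1275 bases (96.5%), so reads may have been shared or dropped between them and both values are uncertain. Scp2, whose gene gives a thiolase and a smaller lipid carrier that gene counts do not separate, had 37037 and 34908 counts and a ratio of 0.21 (0.18 to 0.24), or -0.09 with total counts.

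Abcd3 and Abcd2 lay on opposite sides of 0. Abcd3, the abundant peroxisomal membrane protein that takes in dicarboxylic and branched acyl-CoAs, had 17710 counts in WT (17343 to 18083) and 24448 in Ucp1-KO, for a log2 ratio of 0.76 (0.73 to 0.80). Abcd2, a carrier of very-long-chain and unsaturated acyl-CoAs, had 1798 (1682 to 1920) and 794 counts, a ratio of -0.88 (-1.05 to -0.71), which is 1.84-fold lower. Abcd4, a relative that serves cobalamin transport at the lysosome, had 1265 and 1043 counts and a ratio of 0.02 (-0.15 to 0.19). Between Abcd3 and Abcd2 the difference was 1.64 (1.47 to 1.82).

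Alpha-oxidation removes 1 carbon from methyl-branched acids such as phytanic acid. Phyh, which hydroxylates phytanoyl-CoA, had 5917 and 7856 counts with a log2 ratio at 0.71 (0.64 to 0.78). Hacl1, the lyase of the next step, had 1413 and 1631 counts and a ratio of 0.51 (0.36 to 0.65). Amacr, the racemase that turns the products into substrates for beta-oxidation, had 1703 and 1397 counts and a ratio of 0.01 (-0.13 to 0.16). Hacl1 overlaps Btd on the opposite strand, with 1728 and 1166 counts, and a Phyh exon overlaps an annotated pseudogene that the tables do not count.

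Cat encodes catalase, which destroys hydrogen peroxide. It had 34652 counts in WT and 26124 in Ucp1-KO, for a log2 ratio of -0.11 (-0.14 to -0.08), so it did not follow Ehhadh. Pecr, a reductase of unsaturated acyl-CoAs, had 887 and 876 counts and a ratio of 0.28 (0.09 to 0.48), or -0.03 with total counts.

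Ether lipid synthesis showed the smallest spread of the groups. Gnpat, which acylates dihydroxyacetone phosphate, had 14052 and 13108 counts with a log2 ratio at 0.20 (0.15 to 0.25). Agps, which puts in the ether bond, had 2762 and 2598 counts and a ratio of 0.21 (0.10 to 0.32). Far1, which supplies the fatty alcohol, had 1860 and 1569 counts and a ratio of 0.05 (-0.08 to 0.19). Gnpat and Agps differed by -0.01 (-0.13 to 0.11). With total counts all 3 lay below 0, at -0.11, -0.10 and -0.25. Of 9 further ether lipid genes examined, which act at the endoplasmic reticulum and elsewhere, Selenoi (0.70) passed the 1.5-fold rule upward and Tmem86a (-0.62) downward, with a median of 0.12. Peds1, which makes the vinyl ether bond of plasmalogens, was at -0.46 (-0.62 to -0.30).

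**Figure D2:**
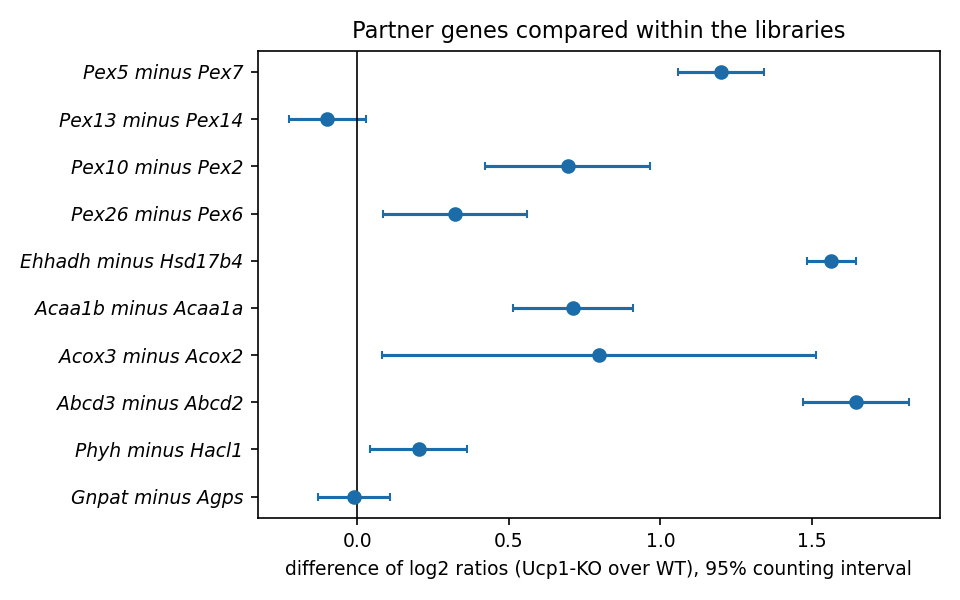
Differences between the log2 ratios of 10 pairs of partner genes (x axis, first gene minus second, with 95% counting intervals on read pairs), which no scaling of the libraries changes. Abcd3 against Abcd2 (1.64), Ehhadh against Hsd17b4 (1.56) and Pex5 against Pex7 (1.20) lie furthest from 0, and the intervals of Pex13 against Pex14 and of Gnpat against Agps include 0.

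Levels were compared between genes as normalised counts per kb of canonical transcript, a scale that shifts where a tissue uses a shorter transcript. In the WT library Scp2 was highest at 12517, followed by Cat at 11953, Pex19 at 5099, Gnpat at 4229 and Abcd3 at 4190. In the Ucp1-KO library the order was Scp2 at 14521, Cat at 11092, Abcd3 at 7119, Ehhadh at 6099 and Pex19 at 5655. Ehhadh went from rank 11 to rank 4 and Abcd2 from rank 25 to rank 29. Pex11a, at 16.1 and 7.41, and Acox2, at 27.1 and 19.3, were lowest in both. Together the members held 0.364% of the WT counts (Clopper-Pearson, 0.362% to 0.366%). In Ucp1-KO they held 0.385% (0.383% to 0.388%), and the shares were 0.469% and 0.609% once mitochondrially encoded genes were set aside.

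**Figure D3:**
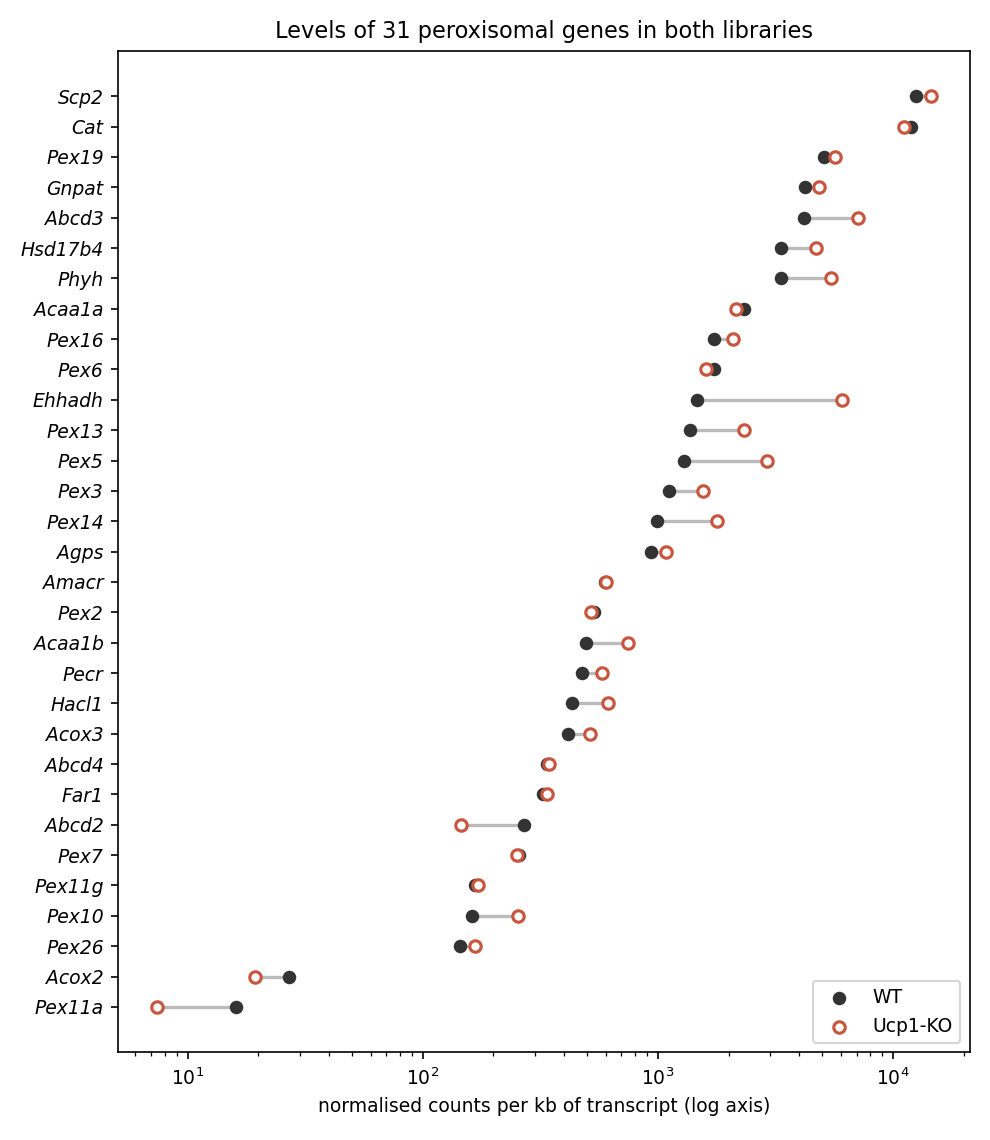
Level of each gene in the WT library (filled points) and the Ucp1-KO library (open points), as normalised counts per kb of transcript on a log axis, ordered by the WT value. The longest line belongs to Ehhadh, from 1473 to 6099, with Scp2 highest and Pex11a lowest in both libraries.

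The member enzymes were also grouped by targeting signal. The 5 enzymes with the usual type 1 signal ran from 0.20 to 2.05 with a median of 0.28. The 3 with a type 2 signal ran from -0.11 to 0.71, and the 6 whose canonical transcript held neither pattern from -0.48 to 0.51 with a median of 0.11. Among these 6 is Agps, which is known as a type 2 protein, but whose canonical transcript, of 508 residues, did not hold the pattern. The other 5, Acox2, Acox3, Hacl1, Amacr and Cat, end in the variant triplets shown earlier. The groups therefore do not divide the enzymes by receptor. In GRCm39 promoters, 250 bases before to 50 after the canonical start on either strand, the letters AGGTCA of a nuclear receptor site were found for 7 of 31 members (Abcd3, Acox2, Amacr, Cat, Pex11g, Pex2 and Scp2) and 15.1% of 21770 protein-coding genes. A direct repeat of AGGNCA with 1 base between the copies was in no member promoter and in 0.404% of all. At so low a share its absence from 31 promoters says little. Ehhadh and Pex5 held neither in this window, and sites outside it were not searched.

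Other genes of the organelle were taken from lists, which were chosen with earlier results of these data known. The genes named from them are among those with the largest ratios in size, and Decr2 and Slc25a17 were added after their values were seen. Of 18 further peroxisomal lipid enzymes, 5 passed the 1.5-fold rule upward and 0 downward, with a median log2 ratio of 0.31. The highest was Acot4, a peroxisomal thioesterase with related neighbours whose sequences were not compared here, from 175 to 1204 counts (3.08, 2.76 to 3.42). Next was Slc27a2, a very-long-chain acyl-CoA synthetase, from 3741 to 23261 (2.94, 2.87 to 3.01). Decr2, an auxiliary reductase, was at 0.68 and the carrier Slc25a17 at 0.64. Of 17 other matrix and redox enzymes, 0 passed it upward and 2 downward, with a median of -0.03. The purine oxidase Xdh was lowest (-1.18), then Mpv17l (-0.68), and Pxmp2 highest (0.53). Organelle fission genes that peroxisomes share with mitochondria had a median of -0.11 over 5 genes, with Mief2 at -0.65 and Fis1 at -0.57.

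Of the members, 8 are known from liver as responsive to peroxisome proliferators: Ehhadh, Acaa1b, Pex11a, Abcd2, Abcd3, Cat, Hsd17b4 and Scp2. They did not move as 1 group, since their log2 ratios ran from -1.09 to 2.05, with 5 above and 3 below 0 and a median of 0.35. The lowest of them, Pex11a, had 40 and 15 counts and an interval that includes 0, and Abcd2 was at -0.88 (-1.05 to -0.71). The other 23 members had a median of 0.21. Of 27 such targets outside the members, 16 passed the 1.5-fold rule upward and 0 downward, with a median of 0.74. Fgf21 and Acot3, listed at 0 in WT, had 98 and 87 counts in Ucp1-KO, and Acot5 had 6 and 209. The sequences of these related Acot genes were not compared, and whether reads were shared between them is not known. Ppara, the receptor itself, had 12989 and 13218 counts (0.32, 0.28 to 0.37) and Pparg was at 0.25. Scaling to the adipocyte markers, of which Pparg is 1, takes 0.25 off both values. Ppargc1a, a coactivator of both, had 4105 and 12332 counts (1.89, 1.81 to 1.96), and Rxrg was at 1.07. The relatives of Rxrg lay below 0, Rxra at -0.81 (-0.92 to -0.69) and Rxrb at -0.46. Of the 11 lipid nuclear receptors and coactivators examined, 6 were above and 5 below 0, with a median of 0.10. Nr1h4, a bile acid receptor, had 56 counts in WT and was listed at 0 in Ucp1-KO.

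Side by side with the members, the 18 mitochondrial beta-oxidation genes had a median log2 ratio of 0.30, with 17 above 0 and a range of -0.10 to 0.66. The 31 members thus had a wider range, from -1.09 to 2.05, and no test of that difference was made. Its lower end was Pex11a, with 40 and 15 counts and an interval that includes 0. The lowest member with an interval wholly below 0 was Abcd2, at -0.88. The mitochondrial genes with the highest ratios were Acadl (0.66), Etfdh (0.64) and Etfb (0.59). Adipocyte markers had a median of 0.25 over 10 genes (range -1.90 to 0.84) and brown adipocyte markers of 0.39 over 12 (range -1.08 to 2.52). The median was 0.19 for 12 macrophage markers, -0.16 for 8 fibroblast and preadipocyte markers, and -0.87 for 10 endothelial markers. Muscle markers had a median of -2.69. Their part in the members' values was not tested. Hepatocyte markers summed to 42 and 43 counts and kidney tubule markers to 24 and 51.

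**Figure D4:**
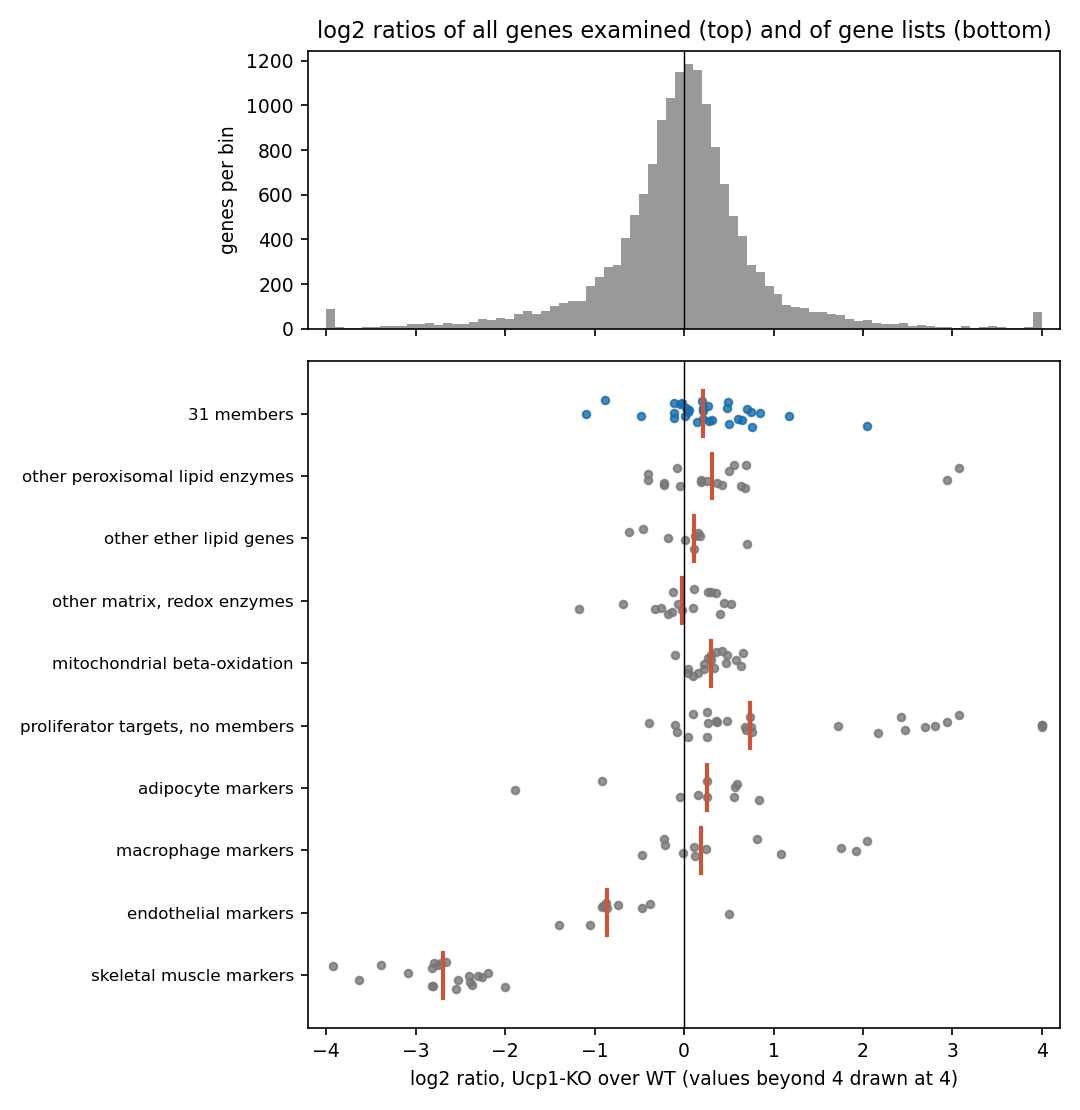
Histogram of log2 ratios of all 15212 genes examined (top, genes per bin) and the genes of 10 lists as points with the median as a red bar (bottom), Ucp1-KO over WT, with values beyond 4 drawn at 4. The 31 members, median 0.21, lie near the macrophage markers (0.19), the adipocyte markers (0.25) and the mitochondrial beta-oxidation genes (0.30). The muscle markers (-2.69) lie far to the left. With total counts all values move left by about 0.31 and the members' median lies below 0.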

How the data were processed

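The authors deposited 1 table of whole-number counts per gene for each library, not normalised, named for the counter featureCounts. The submitters' processing notes name Trim Galore, HISAT2 and build mm39 (GRCm39). Their versions, the annotation, the strand setting and the treatment of multi-mapping reads are not given in the sources used here. Libraries were directional and poly-A enriched. Genes with an identifier but no symbol were retained and made up 0.156% (WT) and 0.121% (Ucp1-KO) of all counts.

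Each library was scaled by its DESeq2 (1.42.0, R 4.3.3) median-of-ratios factor, 1.11 for WT and 0.901 for Ucp1-KO. The log2 ratio is log2((Ucp1-KO + 0.5)/(WT + 0.5)). A gene was examined if its normalised counts averaged 10 or more. Of genes with 1 to 10 counts, 70.7% (WT) and 73.4% (Ucp1-KO) had an even count, against 49.9% and 50.2% at 100 to 1000 counts, so intervals were computed on read pairs, taken as counts divided by 2. They are exact Poisson for counts, exact conditional binomial (Clopper-Pearson) for ratios and normal on the log scale for differences between genes. They cover counting error only and hold no variation between animals. The libraries carry no stated molecular identifiers, so repeated reads may come from 1 molecule and the intervals may be too narrow. The interval code was tested on data simulated under the counting model that it assumes. That checks the code and not whether these libraries follow the model.

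Positions and canonical transcripts came from GENCODE mouse release 39 by symbol, matched for all 31 members. Of the members, 10 share exon sequence with a counted gene, each on the opposite strand. Targeting signals were read from the coding sequences.

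Members and lists were chosen with earlier results of these data known. Named were all members, Ucp1, the other Pex genes, Ppara, Pparg and Ppargc1a, and up to 3 genes of each other list by size of log2 ratio. Alb, Cidea, Decr2, Slc25a17, Rxra and Rxrb were added after their values were seen. Some genes that this rule takes in are not reported here. Alternatives were TMM factors (edgeR 4.0.16), total counts with and without mitochondrially encoded genes, no filter, a minimum of 50, a pseudocount of 5 and intervals on undivided counts.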

Additional observations from a re-analysis of the deposited data

How the results depend on the processing

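No paired analysis was possible because WT and Ucp1-KO are single libraries, so neither could be left out in turn. With TMM factors, and with total counts without mitochondrially encoded genes, all 13 summary values and all 31 members' ratios moved by less than their counting intervals or 1.5 times. Total counts shifted every log2 ratio by about -0.31. The medians were then -0.094 for all members, -0.094 for the Pex genes, 0.0044 for beta-oxidation, -0.29 for the transporters, -0.025 for alpha-oxidation and other enzymes and -0.11 for ether lipid synthesis, and Ucp1 was at -3.28. Under that setting the 1.5-fold rule took in 2 higher members, against 8.61% of all genes. The 2-fold rule took in 1 higher and 2 lower, against 4.80% and 15.2% of all genes. Intervals lay above 0 for 11 members and below 0 for 14, against 14.4% and 53.9% of all genes. The 11 members that changed sign were Pex16 (-0.043), Pex19 (-0.16), Scp2 (-0.093), Pecr (-0.025), Gnpat (-0.11) and Agps (-0.10), whose intervals had been above 0, and Pex26 (-0.094), Pex11g (-0.26), Abcd4 (-0.29), Amacr (-0.29) and Far1 (-0.25), whose intervals had included it. Scaling to the adipocyte markers, chosen after seeing the data, gave medians of -0.038 (all members), -0.038 (Pex genes), 0.060 (beta-oxidation), -0.23 (transporters), 0.030 (alpha-oxidation and other enzymes) and -0.052 (ether lipid synthesis), and Ucp1 at -3.23. With the adipocyte markers the 1.5-fold rule took in 3 higher members, against 9.61% of all genes. The 2-fold rule took in 1 higher and 2 lower, against 5.32% and 13.955% of all genes. Intervals lay above 0 for 11 members and below 0 for 14, against 16.8% and 49.35% of all genes. Pex19 (-0.10), Scp2 (-0.037), Gnpat (-0.052), Agps (-0.040), Pex26 (-0.038), Pex11g (-0.20), Abcd4 (-0.23), Amacr (-0.24) and Far1 (-0.20) changed sign. A minimum mean of 50 left out Pex11a, so that 1 member was at least 1.5-fold and 0 at least 2-fold lower, and a pseudocount of 5 also left 0 at least 2-fold lower. Depth limits Pex11a and Acox2.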
